A study of Mus musculus with 4 samples.

Results

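Tight junction genes encode the proteins that seal neighbouring epithelial cells to each other. The set described here holds 9 of them (Cldn3, Cldn4, Cldn6, Cldn7, Ocln, Marveld2, F11r, Tjp1, and Cgn). The 9 were chosen by name as junction components, with earlier results of these data known, and all were among the 20714 gene symbols listed in both assays. They were measured in untreated wild-type mouse blastocysts by RNA-seq (mRNA, 2 libraries) and by Ribo-seq (ribosome-protected fragments, RPFs, 2 libraries). For both assays, 4-week-old C57BL/6J females were mated with PWK/PhJ males according to the collection notes, whereas the strain label reads C57BL/6N x PWK. Embryos taken at the 8-cell stage grew to blastocysts in KSOM medium and lost the zona pellucida in acid before lysis, so the values describe cultured embryos. The sources used here give neither the number of embryos per library nor whether replicates were separate collections, so p-values measure only the spread between libraries, which may be technical.

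The outer layer of the blastocyst, the trophectoderm, is an epithelium, and its tight junctions close the gaps between cells so that fluid can collect in the cavity. Claudins form the strands of the junction and set which ions pass. Occludin and tricellulin are MARVEL proteins of the strands, junctional adhesion molecules are immunoglobulin-type contacts, and zonula occludens and cingulin proteins form the cytoplasmic plaque that ties the strands to actin. The tail of a claudin ends in a short stretch that is bound by PDZ domains of zonula occludens scaffolds.

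The ends of the claudin coding sequences are shown because they encode the stretch that meets the plaque and because the claudins were the most abundant group. The last 27 coding bases, stop codon included, were read from NCBIM37, the assembly of mm9, with the final 6 bases before the stop codon in capitals. They lie at chr5:135462948-135462974 on the plus strand for Cldn3, chr5:135421983-135422009 on the minus strand for Cldn4, chr17:23818664-23818690 on the plus strand for Cldn6, and chr11:69781193-69781219 on the plus strand for Cldn7.
Cldn3: gcctacgaccgcaaggacTACGTCtga
Cldn4: tctgtccccgccagcaacTATGTGtaa
Cldn6: gaatatcccaccaagaatTATGTGtga
Cldn7: tccaattcctccaaggaaTACGTGtga
Cldn4 and Cldn6 closed with the same 6 bases, and the capitals of all these claudins encode tyrosine and then valine.

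The longest runs that a member shared with another claudin are shown because reads from such a run cannot be assigned to 1 gene. The shared run is in capitals, with 8 flanking bases on each side. Cldn6 (chr17:23818108-23818160, plus strand) and Cldn9 (chr17:23820487-23820539, minus strand) are neighbours with 138 bases between them. Cldn3 (chr5:135462517-135462567, plus strand) and Cldn4 (chr5:135422360-135422410, minus strand) lie 39279 bases apart.
Cldn6: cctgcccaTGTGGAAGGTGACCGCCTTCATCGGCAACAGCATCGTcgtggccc
Cldn9: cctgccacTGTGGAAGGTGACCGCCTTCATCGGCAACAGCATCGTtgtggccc
Cldn3: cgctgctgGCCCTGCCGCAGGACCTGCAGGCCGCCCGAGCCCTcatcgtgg
Cldn4: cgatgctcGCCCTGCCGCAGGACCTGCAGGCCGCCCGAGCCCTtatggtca
The runs measured 37 and 35 bases, and the coding sequences were identical at 73.2% and 69.4% of aligned positions. Of the 633 windows of 28 bases in the Cldn6 coding sequence, 12 were shared with Cldn9, and of the 606 in Cldn4, 8 were shared with Cldn3. These counts include the windows inside the runs shown, and the other pairs among Cldn3, Cldn4, Cldn6, Cldn7, and Cldn9 shared 0 windows.

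Levels are FPKM as the authors computed them, which scale the fragments of a gene by its length and by the mapped fragments of the library. The length is that of the transcript for mRNA and that of the coding sequence for RPF. FPKM is a value per length, so genes can be set side by side within an assay, but the length used affects short genes, as given below. Pairs of values below give replicate 1 and then replicate 2. All FPKM summed to 522714 and 535455 in RNA-seq and to 1911760 and 1967640 in Ribo-seq, so the 2 assays are not on one scale. The general gap between them is taken off only in the test across all genes. The steps of the low values implied 5461780 and 5170270 fragments in RNA-seq and 532286 and 483176 in Ribo-seq. These totals are estimates, since 56.1% and 53.6% of the low RNA-seq values and 78.5% and 77.5% of the low Ribo-seq values lay within 0.1 of a whole fragment, a distance that spans 20% of values. They use an effective length, which is shortened for fragment size. With whole coding lengths the Ribo-seq shares were 39.1% and 37.8%. The effective length was 433 of 633 coding bases for Cldn4 and 5038 of 5238 for Tjp1. Where FPKM were computed with it, RPF of short coding sequences is raised relative to long ones. For a coding sequence of 1000 bases, 3 footprints correspond to 7.05 and 7.77 FPKM, and for a transcript of that length, 3 fragments correspond to 0.687 and 0.726 FPKM. All intervals on footprints are exact Poisson intervals at the 95% level and cover counting error only. The trophectoderm keratins Krt8 and Krt18 were abundant in all 4 libraries, 3 of 5 oocyte markers and 5 of 6 cumulus, blood, and fibroblast markers were at 0 in all 4, and no marker of these 2 lists exceeded 1.92 FPKM.

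Among the claudins, Cldn4, a strand protein of tight epithelia, was highest in both assays. Its mRNA level was 320 and 397 FPKM, above 98.7% and 98.9% of all symbols. RPF reached 2353 and 2454 FPKM, on an estimated 542 (497 to 590) and 513 (470 to 559) footprints. The Ribo-seq libraries differed by a factor of 1.04 and the RNA-seq libraries by 1.24. The ratio of mean RPF to mean mRNA was 6.70, which includes the general gap between the assays. Among all members, Cldn4 took place 1 on both scales, and no library of another member reached its level in the same assay.

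Cldn7, which is found in basal and lateral membranes of many epithelia as well as in strands, followed. Its mRNA level was 206 and 202 FPKM. In Ribo-seq it had 545 and 515 FPKM, on 126 (105 to 150) and 108 (88.6 to 130) footprints. The replicates were nearly equal in both assays.

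Cldn6, a claudin of embryonic epithelia and pluripotent cells, had 116 and 111 FPKM of mRNA. RPF stood at 289 and 298 FPKM, on 71 (55.5 to 89.6) and 66 (51.0 to 84.0) footprints. Cldn7 and Cldn6 kept the same order in both assays, with no overlap between them.

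Cldn3, the remaining abundant claudin, was the least even member in RNA-seq. Its mRNA level was 13.1 and 36.4 FPKM, a 2.79-fold gap that exceeded the replicate gap of 98.5% of the tested genes. Its RPF level was 65.5 and 51.9 FPKM, on only 16 (9.15 to 25.98) and 12 (6.20 to 21.0) footprints. Both Ribo-seq values lay above both RNA-seq values before the general gap between the assays is taken off. Cldn3 stood below Cldn4, Cldn7, and Cldn6 in every library.

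Of the claudin family, 32 symbols made of Cldn and a number were listed in both assays, and the 4 members made up nearly all of their summed FPKM. Because the members were chosen with earlier results of these data known, their joint share describes the set and tests nothing about the family. All other claudins together contributed 0.410% and 0.459% in RNA-seq and 0.387% and 0% in Ribo-seq. Cldn4 alone contributed 48.7% and 52.9% of the claudin mRNA and 72.1% and 74.0% of the claudin RPF. Its share was 50.8% ± 2.97 of mRNA and 73.0% ± 1.33 of RPF (SD, n = 2), a difference of 22.2 percentage points with no overlap between the assays. A two-sided exact permutation test gave p = 0.333, the smallest value that 2 libraries against 2 allow.

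**Figure D1:**
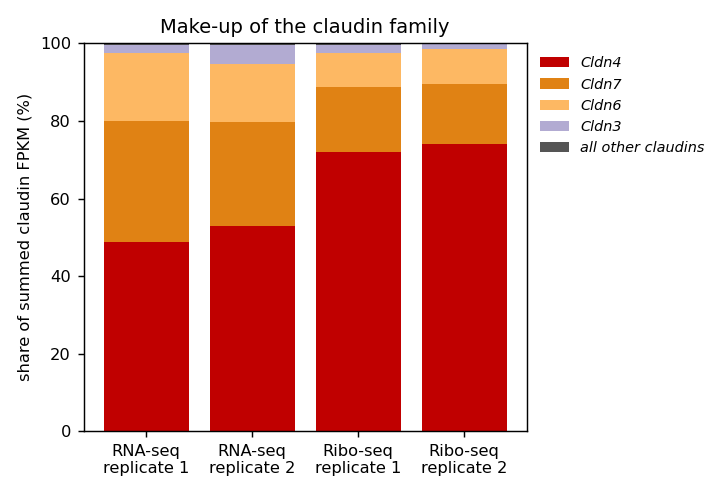
Share of the summed FPKM of 32 claudin symbols (%) in each of the 4 libraries, stacked by gene. Cldn4 takes 48.7% and 52.9% of the bars in RNA-seq and 72.1% and 74.0% in Ribo-seq, Cldn7 is second in every library, and the claudins outside the set are too small to see.

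Cldn7 contributed 31.3% and 26.9% of the mRNA and 16.7% and 15.5% of the RPF. Cldn6 contributed 17.6% and 14.8% of the mRNA and 8.84% and 8.98% of the RPF. Both thus had a lower share in each Ribo-seq library than in either RNA-seq library, while the ranges of Cldn3 overlapped between the assays (1.99% and 4.85% of mRNA, 2.01% and 1.56% of RPF). Shares of the same total are tied, so a larger share for Cldn4 leaves smaller ones for the rest. Relative to all tested genes, as given below, Cldn7 and Cldn6 had log2 differences of 0.11 and 0.10.

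Of 25 further claudin genes and claudin-like genes looked up, 24 were listed and 17 were at 0 in all 4 libraries, among them Cldn1, a barrier claudin of skin, and Cldn2, which forms cation pores in leaky epithelia. The others at 0 were Cldn8, Cldn10, Cldn11, Cldn14, Cldn15, Cldn16, Cldn17, Cldn18, Cldn19, Cldn20, Cldn22, Cldn24, Cldn34a, Cldnd2, and Tmem235. A value of 0 means no more than that the gene was not detectable at this depth. Cldn9, the neighbour of Cldn6 whose shared run is shown above, had 0.146 and 0 FPKM of mRNA and 2.08 and 0 of RPF, all below 3 fragments. Cldn12, a claudin without the usual PDZ-binding tail, had 1.82 and 1.81 FPKM of mRNA and 10.6 and 0 of RPF, where the first RPF value rests on 3 footprints (0.619 to 8.77). Cldnd1, a claudin-like membrane protein, was the only gene of this list with RPF above 0 in both libraries, at 15.3 and 29.5 FPKM. Cldn12 and Cldnd1 were the 2 genes of this list with enough mRNA and RPF for the test across all genes given below, and neither passed it (limma adjusted p = 0.611 and 0.721, median difference -0.38).

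F11r, the junctional adhesion molecule JAM-A, lay between Cldn7 and Cldn6 in mean level in both assays. Its mRNA level was 174 and 163 FPKM. Ribo-seq gave 497 and 551 FPKM, on 186 (160 to 215) and 187 (161 to 216) footprints. In RNA-seq it lay below Cldn7 in both libraries, whereas in Ribo-seq the ranges of the 2 genes overlapped and their order could not be told.

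The MARVEL proteins were far less abundant. Ocln, which encodes occludin, had 6.85 and 6.12 FPKM of mRNA. Its RPF level was 42.6 and 46.8 FPKM, on 31 (21.1 to 44.0) footprints in each library. The ratio of the mean RPF to the mean mRNA was 6.90, and over single libraries it ran from 6.22 to 7.66, which overlapped the range of Cldn4 (5.93 to 7.66). Replicates lay within a factor of 1.12 in both assays.

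Marveld2, which encodes tricellulin, the protein of the corners where 3 cells meet, was at the limit of the Ribo-seq depth. Its mRNA level was 2.05 and 2.41 FPKM, the lowest of the set. Its RPF level was 5.10 and 23.9 FPKM, on 4 (1.09 to 10.2) and 17 (9.90 to 27.2) footprints. On the FPKM scale the counting intervals (1.395 to 13.1 and 13.97 to 38.4) did not overlap, so the replicates differed by more than counting error, and the first library was close to the floor of 3 footprints.

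In the plaque, Tjp1, which encodes the scaffold ZO-1, had 3.48 and 5.46 FPKM of mRNA. In Ribo-seq it had 27.7 and 22.1 FPKM, on 74 (58.1 to 92.9) and 54 (40.6 to 70.5) footprints, since its coding sequence of 5238 bases is long. Per length, the claudin partner exceeded the scaffold by a wide margin: the FPKM of Cldn4 was 92.0 and 72.7 times that of Tjp1 in RNA-seq and 84.9 and 111 times in Ribo-seq. These factors overlapped between the assays. Where FPKM were computed with the effective length, the Ribo-seq factors include its effect. With RPF rescaled to the whole coding length, mean RPF was 1642 FPKM for Cldn4 and 23.9 for Tjp1.

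Cgn, which encodes cingulin, a coiled-coil plaque protein that binds actin and myosin, had 11.98 and 11.1 FPKM of mRNA. Ribo-seq gave 21.2 and 7.38 FPKM, on 38 (26.9 to 52.2) and 12 (6.20 to 21.0) footprints. It was the only member whose mRNA and RPF values overlapped before the general gap between the assays is taken off. Its Ribo-seq replicates differed by more than counting error, since the intervals did not overlap. These values are uncertain for a further reason of sequence. Of its 3552 windows of 28 bases, 1063 (29.9%), between coding bases 1862 and 3579, had a second place in the genome at chr3:94465830-94474620. That place lies outside the transcript used (94563991-94590414) but inside the span that GENCODE gives the Cgn gene (94464507-94590414). Reads from the 2 places cannot be fully separated. BC021767, the symbol read for the copy, had 8.26 and 12.1 FPKM of mRNA, near the level of Cgn. How shared reads were divided between them in each assay was not tested. The place of Cgn in the orders below and its difference between the assays carry this uncertainty.

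**Figure D2:**
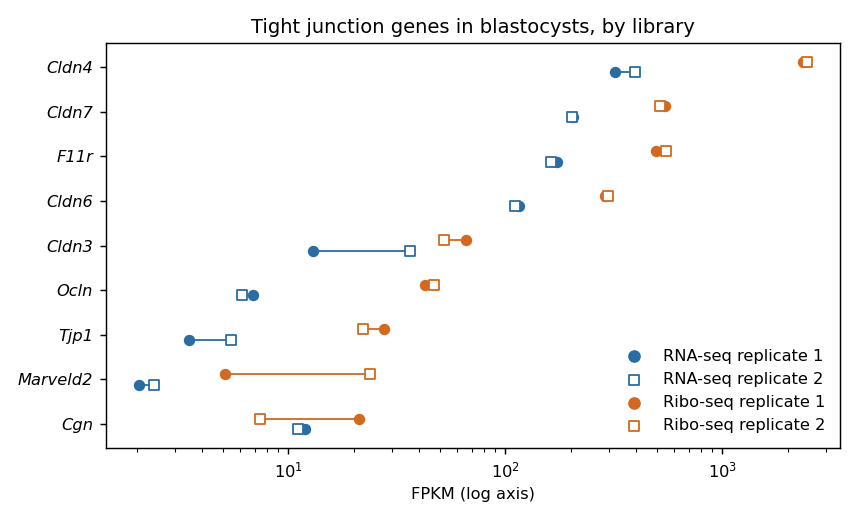
FPKM (log axis) of the 9 members in each library, ordered by mean RPF, with circles for replicate 1, squares for replicate 2, blue for RNA-seq, orange for Ribo-seq, and lines joining replicates. Cldn4 lies far right of all others in Ribo-seq (2353 and 2454 FPKM), and Cgn is the only gene whose blue and orange ranges overlap.

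**Figure D3:**
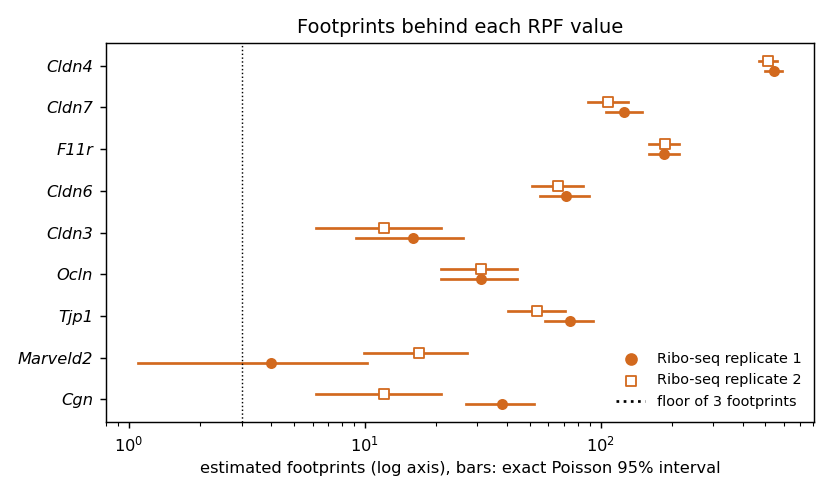
Estimated number of footprints (log axis) behind each RPF value, by gene and library, with exact Poisson 95% intervals as bars and the floor of 3 footprints as a dotted line. Cldn4 rests on 542 and 513 footprints, whereas Marveld2 has 4 in replicate 1 and its interval crosses the floor.

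In order of mRNA level, the members ran Cldn4, Cldn7, F11r, Cldn6, Cldn3, Cgn, Ocln, Tjp1, and Marveld2, and no neighbours in this order overlapped between their 2 libraries. The RPF order was Cldn4, Cldn7, F11r, Cldn6, Cldn3, Ocln, Tjp1, Marveld2, and Cgn, where Cldn7 overlapped F11r, Tjp1 overlapped Marveld2, and Marveld2 overlapped Cgn. The first 5 places were therefore the same in both assays, and Cgn moved from place 6 to place 9. In bulk embryos, fewer cells that express a gene and less RNA per cell cannot be told apart.

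Whether the members carried more or fewer ribosome fragments than their mRNA level predicts was tested with limma. The value is the difference of log2(FPKM+1), Ribo-seq minus RNA-seq, after the median of all 8327 tested genes, 1.26, was set to 0, and it understates the change of low genes. Genes entered the test with a mean of at least 1 FPKM in both assays, as all 9 members did. A gene counted as higher or lower if its log2 difference was 1 or more in size and its adjusted p was below 0.05. By this rule 2 of 9 members were higher in Ribo-seq and 0 were lower, while 9.13% of all tested genes were higher and 3.24% were lower. The median over the members was 0.37, and 8 of 9 were above 0, as 4163 of all 8327 genes were. The count above 0 depended on the scaling, since it was 4 of 9 after quantile normalization.

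The members called higher were Cldn4 and Ocln. Cldn4 was higher by 1.49 (95% interval 0.77 to 2.202, SE 0.26, adjusted p = 0.0433 in limma with Benjamini-Hochberg adjustment), above 88.8% of the tested genes. Ocln was higher by 1.35 (0.68 to 2.02, SE 0.24, adjusted p = 0.0458 in limma), above 86.7%. Both values were close to the threshold. Both calls were lost with a pseudocount of 0.1 (limma adjusted p = 0.0678 for Cldn4 and 0.0633 for Ocln), after quantile normalization (0.0730 and 0.0595), and with a replicate block (0.107 and 0.114). Fits without either RNA-seq library cannot decide these calls, since 1 library remains in that assay. Their differences were 1.34 and 1.63 for Cldn4 and 1.42 and 1.27 for Ocln. The call of Cldn4 was lost when RPF was rescaled to the whole coding length (1.20, limma adjusted p = 0.0547). Where FPKM were computed with the effective length, this undoes it. That length counts 433 of 633 coding bases for Cldn4 and 1366 of 1566 for Ocln. The rescaling changed Ribo-seq values only, left 7358 genes in the test, and lowered the median removed from 1.26 to 0.998. How much of the Cldn4 value comes from that length was not tested.

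Tjp1 was next, at 1.00 (0.12 to 1.88, limma adjusted p = 0.114), a difference that did not pass. F11r had a value of 0.37 (-0.30 to 1.04, limma adjusted p = 0.335). Cldn7 and Cldn6 had values of 0.11 (-0.54 to 0.76) and 0.10 (-0.55 to 0.75), so for these well-covered claudins a shift of more than 0.76 on the log2 scale lay outside the interval. Cldn3 had the same central value, 0.11, with a wide interval (-1.44 to 1.66). Marveld2 was at 0.67 (-1.41 to 2.75), and its value depended on the library, at 1.66 without Ribo-seq replicate 1 and -0.47 without Ribo-seq replicate 2. Cgn, the only member below the median of all genes, was at -1.14 (-2.65 to 0.38, limma adjusted p = 0.223), and at -1.87 without Ribo-seq replicate 1. With 1 Ribo-seq library left, the spread comes from the RNA-seq libraries alone, and such a fit called Marveld2 higher and Cgn lower without Ribo-seq replicate 1.

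**Figure D4:**
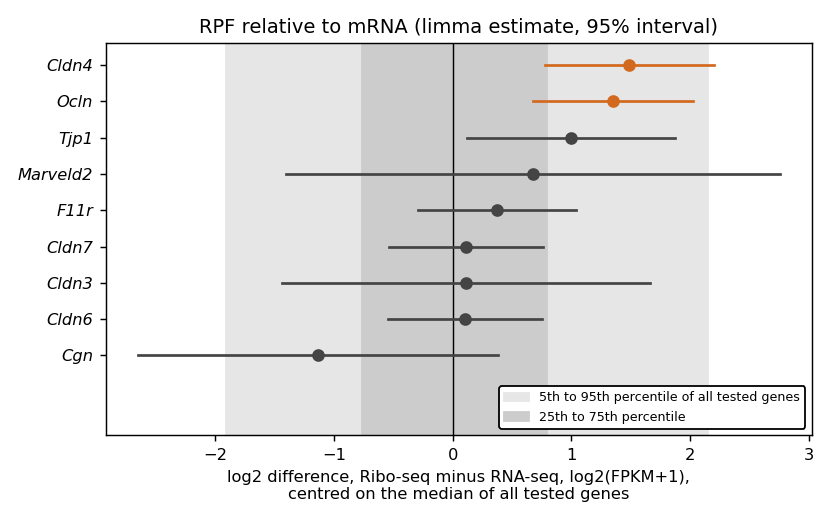
Log2 difference between RPF and mRNA of each member (limma estimate with 95% interval as bars), relative to the median of all 8327 tested genes at 0, with grey bands for the 5th to 95th and the 25th to 75th percentile of those genes. Cldn4 (1.49) and Ocln (1.35), in orange, passed the test, and the long bars of Cldn3, Marveld2, and Cgn reflect unequal replicates.

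Within the claudins, Cldn4 was above 88.8% of the tested genes in this difference, whereas Cldn7, Cldn3, and Cldn6 were above 53.8%, 53.8%, and 53.4%. Differences between members were not tested beyond the share of Cldn4 above, and the interval of Cldn3 included the value of Cldn4. Across all tested genes the values ran from -1.90 at the 5th percentile to 2.15 at the 95th, so all 9 members were inside this range.

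Markers of other embryonic cells also had unequal levels in the assays, and the sums that follow are before the general gap of 1.26 on the log2 scale is taken off. Sox17, a transcription factor of primitive endoderm, had 0.204 and 0 FPKM of mRNA and 32.7 and 27.6 of RPF. The summed level of 4 primitive endoderm markers was 12.5 and 9.34 FPKM in RNA-seq and 154 and 143 in Ribo-seq, and that of 3 inner cell mass markers was 141 and 57.4 against 681 and 810. The summed level of 7 trophectoderm markers was 3036 and 2797 against 5826 and 5377. Krt8 and Krt18 dominated this sum, with means of 958 and 1756 FPKM of mRNA and 1400 and 3397 of RPF. Their log2 differences after centring were -0.70 and -0.31, whereas the median over the 7 markers was 0.65 and 4 were above 0. By the same rule 1 of 1 tested primitive endoderm marker (Gata6), 0 of 2 tested inner cell mass markers, and 1 of 7 trophectoderm markers (Cdx2) were higher. In each of these lists 0 were lower. Of all tested genes, 9.13% were higher and 3.24% lower, and these lists are too short to be set against those shares. Sox2, a pluripotency factor and the other inner cell mass marker, had too little mRNA for the test, at 0.889 and 0.682 FPKM against 37.1 and 35.4 of RPF. Whether embryos of the assays differed in stage or in their cell types was not tested, nor was the part of this in the values of the members.

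The start codons are shown because ribosomes begin translation there. Each sequence gives 9 bases before the start codon, the start codon in capitals, and 1 base after it, from NCBIM37. Their places are chr5:135422612-135422624 (minus strand) for Cldn4, chr13:101311069-101311081 (minus) for Ocln, chr7:72515719-72515731 (minus) for Tjp1, chr11:69779420-69779432 (plus) for Cldn7, chr17:23818022-23818034 (plus) for Cldn6, chr5:135462306-135462318 (plus) for Cldn3, chr1:173367763-173367775 (plus) for F11r, chr13:101382521-101382533 (minus) for Marveld2, and chr3:94583909-94583921 (minus) for Cgn.
Cldn4: ggctgagcgATGg
Ocln: acatcagccATGt
Tjp1: agagacaagATGt
Cldn7: gacaaggaaATGg
Cldn6: aacctcatcATGg
Cldn3: ccagcagccATGt
F11r: gtaactgtaATGg
Marveld2: aaatcacaaATGt
Cgn: aaggcacacATGa
A purine stood 3 bases before the start codon in 7 of 9 members and in 84.1% of 18978 genes with a leader of that length. The exceptions were Marveld2 and Cgn. A g followed the start codon in Cldn4, Cldn7, Cldn6, and F11r, and in 49.6% of all genes. Cldn4, Cldn7, Cldn6, and F11r had both features, as did 41.5% of all genes.

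The members fell into short and long coding sequences in GENCODE vM1. The 4 claudins had 633 to 660 coding bases, which placed them between the 18.7th and the 20.3rd percentile of 21370 genes (median 1170), and each of Cldn3, Cldn4, and Cldn6 is encoded by 1 coding exon. F11r had 903 coding bases in 10 coding exons, Ocln 1566 in 8, Marveld2 1668 in 6, Cgn 3579 in 20, and Tjp1 5238 in 28. The claudins were rich in G and C, from 56.3% in Cldn7 to 64.4% in Cldn3, against a median of 51.9% over all genes, whereas Ocln had 47.4% and Tjp1 47.9%. Cldn4 had 61.6%, and whether base content plays a part in the RPF to mRNA difference was not tested. Ocln and Marveld2 are neighbours on chromosome 13, 43238 bases apart, and had unlike values in these libraries.

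The other parts of the junction were read from lists of 13 strand and adhesion genes, 21 plaque scaffolds, and 26 regulators. Of the strand and adhesion genes, 6 were tested, and 1 was higher and 0 lower in Ribo-seq (all tested genes, 9.13% and 3.24%), with a median difference of 0.60. That gene was Jam2, a junctional adhesion molecule related to F11r, at 1.998 and 1.05 FPKM of mRNA and 51.2 and 56.4 of RPF, on 19 (11.4 to 29.7) footprints in each library. It was higher by 3.20 (2.36 to 4.05, limma adjusted p = 0.0199). Cxadr, an immunoglobulin-type adhesion protein that also serves as a virus receptor, had the highest RPF of this list, at 167 and 343 FPKM, with 15.0 and 26.6 of mRNA, and its difference of 2.26 did not pass (limma adjusted p = 0.0650). Nectin2, an adhesion protein of the neighbouring adherens junction, came after it, at 55.5 and 74.3 FPKM of RPF and 12.8 and 9.45 of mRNA, and its difference of 1.18 did not pass either (limma adjusted p = 0.0805). Jam3 and Ildr2, a further junctional adhesion molecule and an angulin, were at 0 in all 4 libraries, and Ildr1, an angulin that recruits tricellulin, had 2.57 and 1.30 FPKM of mRNA and 1.46 and 9.66 of RPF.

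Of the plaque scaffolds, 14 were tested, and 3 were higher and 1 was lower (all tested genes, 9.13% and 3.24%), with a median difference of 0.50. Tjp3, which encodes ZO-3, a relative of ZO-1, was at 8.26 and 7.33 FPKM of mRNA and 46.4 and 33.2 of RPF. It exceeded Tjp1 in each library, and its difference of 0.94 did not pass (limma adjusted p = 0.109). Genes of this list that were higher included Ybx3, a nucleic acid-binding protein that docks on ZO-1, at 58.7 and 60.9 FPKM of mRNA and 767 and 603 of RPF, and Lin7c, a PDZ scaffold of the polarity complexes, at 21.5 and 23.5 and at 263 and 232. They were higher by 2.23 and 2.14 (limma adjusted p = 0.02504 and 0.0241).

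Cgnl1, which encodes paracingulin, the relative of cingulin, was the lower gene. Its mRNA was at 4.99 and 7.03 FPKM and its RPF at 2.53 and 3.35. It was lower by a log2 difference of -2.09 (-2.90 to -1.27, limma adjusted p = 0.0315). The footprints behind these low RPF values were not estimated, so their counting error is not known. Cingulin itself was also below the median, as given above, but did not pass.

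Of the regulators, 25 were tested, and 2 were higher and 0 lower (all tested genes, 9.13% and 3.24%), with a median difference of 0.52. Those were Rhoa, the small GTPase that controls actomyosin tension at junctions, at 147 and 153 FPKM of mRNA and 1224 and 1202 of RPF, and Myh9, a non-muscle myosin heavy chain, at 25.8 and 26.2 and at 176 and 173. They were higher by 1.74 and 1.44 (limma adjusted p = 0.0293 and 0.0400). The regulators with the highest RPF were Epcam, a membrane protein that binds Cldn7, at 1630 and 1596 FPKM, Cdc42, a GTPase of cell polarity, at 1270 and 1621, and Rhoa. Epcam had a difference of 0.70 (0.01 to 1.39, limma adjusted p = 0.135) and Cdc42 one of 0.52 (-0.22 to 1.26, limma adjusted p = 0.244).

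**Figure D5:**
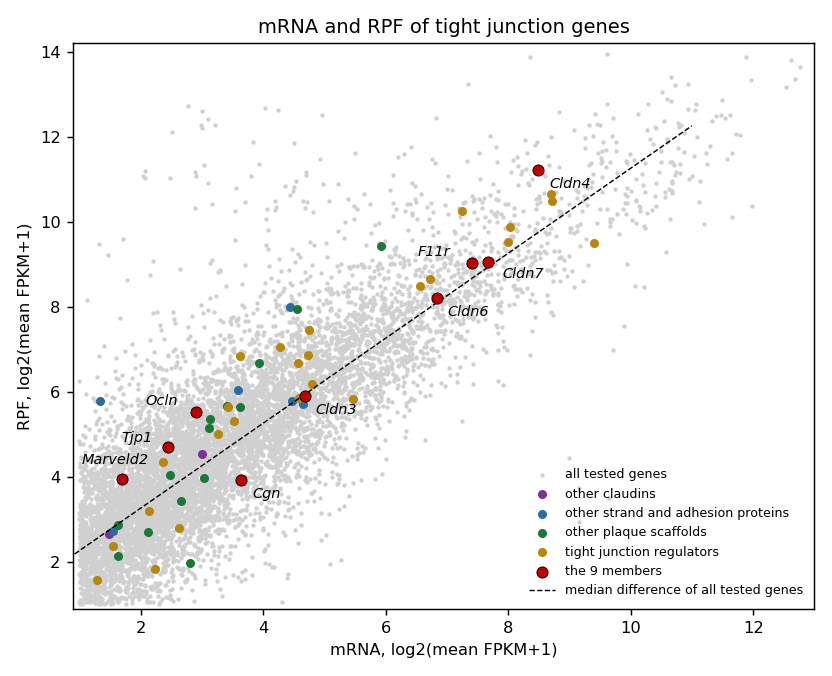
Mean RPF against mean mRNA, both as log2(mean FPKM+1), for all 8327 tested genes (grey), the 9 members (red), and the other tight junction genes tested (coloured by list), with the median difference of all tested genes as a dashed line. Cldn4, Ocln, and Tjp1 lie above the line, Cldn7, Cldn6, and Cldn3 lie close to it, and Cgn lies below it.

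Genes with nearly the same 4 values were found by Euclidean distance over log2(FPKM+1) in the 4 libraries. Eif1, which encodes a translation initiation factor, was nearest to Cldn4 (distance 0.18), at 322 and 432 FPKM of mRNA and 2167 and 2381 of RPF. Vps25, a subunit of a membrane-sorting complex, was nearest to Cldn6 (0.07), and Faf2 was nearest to Ocln (0.20), at 7.78 and 6.18 FPKM of mRNA and 42.8 and 50.8 of RPF. With 4 libraries, such likeness describes levels only.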

How the data were processed

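Blastocyst RNA-seq and Ribo-seq (2 libraries each) were grouped by their titles. The authors deposited FPKM per gene and library. They trimmed reads (Trim Galore 0.4.2, cutadapt 1.14), removed rRNA reads from Ribo-seq (Bowtie2 2.2.2), mapped to the mm9 transcriptome with STAR 2.5.3a, allowing up to 20 places per read, and ran Cufflinks 2.2.1 on transcripts (RNA-seq) or refFlat coding sequences (Ribo-seq). Reads from similar sequences can thus be divided between genes.

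The members and gene lists were chosen with earlier results of these data known. Where a symbol was repeated, its highest FPKM was used, and no member was repeated. Log2(FPKM + 1) values were fitted with limma 3.58.1 (R 4.3.3), with empirical Bayes moderation and Benjamini-Hochberg adjustment over the 8327 genes that averaged 1 FPKM or more in each assay. All 9 members were named. From other lists, the text named the 3 genes with the highest RPF, genes at 0, and up to 3 past the threshold with the largest difference, and other genes it names were chosen after their values were seen. One gene that this rule names is not reported here.

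Depth was estimated from FPKM steps with effective lengths for fragments of 200 ± 80 bases (mean, SD). Footprints rest on GENCODE vM1 lengths (NCBIM37), which may differ from those of the authors, and 28-base windows were matched to that assembly. Python 3.11.15, numpy 2.4.6, scipy 1.17.1, and pandas 2.3.3 were used. The depth estimate and the fit were tested on simulated data. Alternatives were the pseudocount, the filter, the centring, quantile normalization, a replicate block, a variance trend, summed repeats, rescaling to whole coding length, and each library left out.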

Additional observations from a re-analysis of the deposited data

How the results depend on the processing

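The number of genes called depended on the fit. With the main settings, 760 genes were higher and 270 lower (73.8% of calls higher). The counts were 413 and 130 with a pseudocount of 0.1, 1961 and 123 with no filter on low values (94.1% higher), 790 and 515 with a filter at 5 FPKM (60.5%), 4113 and 65 with no centring (98.4%), 656 and 485 after quantile normalization (57.5%), and 1134 and 477 with an intensity trend. Leaving out 1 library gave from 0 to 1486 higher and from 0 to 1601 lower. Without an RNA-seq library, where the remaining one is assumed to vary like the Ribo-seq libraries, limma called 0 genes, with 1337 (without replicate 1) and 1269 (without replicate 2) at an unadjusted p under 0.05. Without a Ribo-seq library, where the spread comes from the RNA-seq libraries alone, it called 1486 and 1601 (without replicate 1) and 1352 and 1403 (without replicate 2). A replicate block left 27 higher, 1 lower, and 0 members (2 members at an unadjusted p under 0.05). The deviations of same-numbered libraries had a correlation of 0.00994 over 8327 genes. This cannot tell whether such libraries shared embryos, since the spread within each assay may be technical, and the labels do not state it.

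The number of members higher was 0 with a pseudocount of 0.1 (3 at an unadjusted p under 0.05 in limma), 0 after quantile normalization (4), 5 with no filter (Cldn4, Cldn6, Cldn7, Ocln, and F11r), 6 with no centring (these and Tjp1), and 1 with the whole coding length (Ocln). It ranged from 0 to 3 with 1 library left out, and the number lower from 0 to 1. With no filter the median of all genes is 0, so that setting is also uncentred for expressed genes. Cldn3 changed sign after quantile normalization (-0.21) and with the whole coding length (-0.14), and ranged from -0.59 (without RNA-seq replicate 1) to 0.80 with 1 library left out, with -0.08 without Ribo-seq replicate 1. Cldn6 changed sign with a pseudocount of 0.1 (-0.0258), quantile normalization (-0.39), and the whole coding length (-0.16), and ranged from -0.0465 (without Ribo-seq replicate 2) to 0.13 with 1 library left out. Cldn7 did so with the first 3 of these (-0.0174, -0.37, and -0.17), F11r after quantile normalization (-0.0919), Cgn with no filter and no centring (0.12 in both), and Marveld2 without Ribo-seq replicate 2, with a range from -0.47 to 1.66 over the libraries left out. The cause was not tested. None of these sign changes passed the test.

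The median RPF level of the members was 58.7 FPKM, and 40.9 with the whole coding length. The estimated depth with whole in place of effective lengths was 5090340 and 4843440 fragments in RNA-seq and 460112 and 422695 in Ribo-seq. Summing repeated symbols changed no call of a member. Ribo-seq depth limits Marveld2, Cldn3, and Cgn, with fewer than 20 footprints in at least 1 library.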
